A study of Homo sapiens with 4 samples.

Results

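The genes described here are the transcriptional co-activators YAP1 and WWTR1, which encodes TAZ, the DNA-binding factors TEAD1, TEAD2, TEAD3 and TEAD4, and 4 of their target genes, CCN1, CCN2, ANKRD1 and AMOTL2. Every peak inside one of these 10 genes, or within 10 kb of either end of it, was taken, which gave 177 of the 190348 peaks in the count table. Chromatin accessibility was measured by ATAC-seq, in which Tn5 transposase cuts and tags open DNA. The cells were LM2, a breast cancer line that descends from MDA-MB-231 and forms lung metastases more readily. The sg1 group held 2 libraries of cells with a CECR2 deletion, the first in the labels' numbering, made with guide sg1, and the control group held 2 libraries of cells with a nontargeting control. CECR2 is a bromodomain protein of chromatin-remodelling complexes. Both groups were grown with puromycin and each library came from 50000 cells. The sources used here do not say whether the deleted cells were 1 clone, or whether the replicates came from different cultures. A p-value therefore reflects only how far these 4 libraries vary, and that variation may be technical.

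The Hippo pathway is a kinase cascade in which STK3 and STK4, with SAV1, activate LATS1 and LATS2, and these phosphorylate YAP and TAZ and hold them in the cytoplasm. Unphosphorylated YAP and TAZ enter the nucleus and bind TEAD factors, which recognise the letters GGAATG and often sit beside AP-1 at enhancers. CCN1, CCN2 and ANKRD1 are the usual readouts of this activity, AMOTL2 is a target whose product restrains YAP, and MDA-MB-231 cells are known for a loss of the upstream regulator NF2.

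Promoter sequences are shown for the members whose promoters hold the TEAD letters, because the peaks over them are among those compared below. The table of RefSeq promoters for GRCh38.p14 held 7 of the 10 members, with 10 promoters, and did not list CCN1, TEAD1 and TEAD4. GGAATG was searched on both strands of the 300 bases from 250 before to 50 after each start, and so was TGANTCA, the AP-1 letters. No match of one overlapped a match of the other. The 250 bases before the start are printed 5′ to 3′ on the strand of the gene, with motif matches in capitals. The CCN2 promoter, chr6:131951373-131951622 on the minus strand, held 3 TEAD matches, 169, 104 and 95 bases before the start. The ANKRD1 promoter, chr10:90921088-90921337 on the minus strand, held 2 TEAD matches, 220 and 128 bases before the start, and 1 AP-1 match 195 bases before it. The second AMOTL2 promoter, chr3:134374448-134374697 on the minus strand, held 1 match on the opposite strand, read as CATTCC, 69 bases before the start. The YAP1 promoter, chr11:102110197-102110446 on the plus strand, held 1 match 162 bases before the start.
CCN2: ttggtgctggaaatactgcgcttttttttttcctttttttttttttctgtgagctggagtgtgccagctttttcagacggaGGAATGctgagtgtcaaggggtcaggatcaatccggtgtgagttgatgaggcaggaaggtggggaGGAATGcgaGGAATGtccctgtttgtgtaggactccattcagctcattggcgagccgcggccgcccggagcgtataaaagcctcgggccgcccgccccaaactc
ANKRD1: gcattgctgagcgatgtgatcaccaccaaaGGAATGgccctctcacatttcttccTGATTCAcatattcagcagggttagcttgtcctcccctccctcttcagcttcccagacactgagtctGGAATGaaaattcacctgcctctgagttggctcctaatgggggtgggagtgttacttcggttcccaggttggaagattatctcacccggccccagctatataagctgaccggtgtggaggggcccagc
AMOTL2: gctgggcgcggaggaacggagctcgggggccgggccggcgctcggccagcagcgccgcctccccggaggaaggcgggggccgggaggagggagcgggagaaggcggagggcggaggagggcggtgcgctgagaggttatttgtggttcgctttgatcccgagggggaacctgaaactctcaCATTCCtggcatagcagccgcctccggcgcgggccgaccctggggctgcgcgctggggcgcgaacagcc
YAP1: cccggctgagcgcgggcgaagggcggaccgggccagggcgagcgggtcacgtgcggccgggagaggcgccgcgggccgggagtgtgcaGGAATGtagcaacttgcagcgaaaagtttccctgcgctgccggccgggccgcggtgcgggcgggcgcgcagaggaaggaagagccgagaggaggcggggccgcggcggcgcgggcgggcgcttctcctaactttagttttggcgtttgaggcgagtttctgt
In all, 4 of the 10 member promoters held a TEAD match and 1 held an AP-1 match. Among 35116 promoters of the same length, 14% held GGAATG and 7.71% held TGANTCA. No match was found in these windows of WWTR1, TEAD2 or TEAD3. All 300 bases of each of the 4 promoters shown lay within a peak.

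The 4 libraries differed in depth. After 109 peaks at the start of chromosome 1 were left out, the sg1 libraries held 43519018 and 38924086 counts and the control libraries 21002477 and 15561701. The left-out peaks held 25.4% of the counts in both sg1 libraries, against 17.99% and 17.88% in the control libraries. Depth and deletion go together in this design and cannot be told apart. The mean chi-square per peak was 2.003 within the sg1 pair and 2.004 within the control pair, against 8.70 and 10.4 between sg1 and control libraries. A count is a cut site and a fragment can be cut at both ends, which alone can double the value of 1 expected of independent counts, so replicates differed by little more than sampling noise. At peaks with 1000 counts or more the pairs gave 2.42 for sg1 and 2.46 for control, and each library was treated as a replicate of its own. The targeted gene gave no check of the labels, since accessibility need not change at an edited gene. The tallest CECR2 gene-end peak had 3.34 and 4.18 CPM in sg1 and 3.59 and 3.39 CPM in control libraries. CPM is the usual depth-normalised count, here taken over the counts kept and after scaling by trimmed mean of M values (TMM). At gene ends, all 6 markers of MDA-MB-231 derived cells had a peak, with summed levels of 214.5 and 219.6 CPM in sg1 and 219.3 and 226.4 CPM in control libraries. Markers of other cell types also had peaks. They were 4 of 5 luminal markers, with 37.8 and 35.5 CPM in sg1 and 31.3 and 26.2 CPM in control libraries, 4 of 5 haematopoietic markers, with 91.3 and 91.6 CPM in sg1 and 104.5 and 101.1 CPM in control libraries, and 1 of 3 endothelial markers. ESR1, PECAM1 and CDH5 had no gene-end peak, whereas GATA3, KRT19, LAPTM5, CD3E and CD14 had one, so gene-end peaks do not separate these cell types here. GATA3 and KRT19 were called higher and CD3E and LAPTM5 lower in sg1, and the part of such markers in the results below was not tested.

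With the 10 genes pooled, more peaks lost accessibility in sg1 cells than gained it, mostly through WWTR1 (15 lower) and TEAD1 (12 lower). Only WWTR1, TEAD1 and AMOTL2 had more lower than higher peaks. Of the 177 peaks, 174 had enough counts to test, and 35 of these were lower and 19 higher in sg1 at a false discovery rate (FDR) of 0.05 by edgeR's quasi-likelihood test over all peaks. That is 20.1% lower and 10.9% higher, beside 16.8% lower and 11.5% higher of 184717 peaks tested in all. Among 119452 tested peaks within 10 kb of any protein-coding gene, 15.5% were lower and 12.2% higher. The median log2 fold change, sg1 over control, was -0.13 for the members, 0.02 for all peaks and 0.04 for peaks near genes. DESeq2 called 21 members lower and 8 higher, beside 10.4% and 4.93% of all peaks it tested. Leaving out sg1 replicate 1 gave 22 members lower and 9 higher. Leaving out sg1 replicate 2 gave 22 lower and 16 higher. Thinning every library to the depth of the shallowest gave 29 lower and 16 higher.

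Calls of at least 2-fold were made at 15 lower (8.62%) and 8 higher (4.6%) of the 174 peaks, shares close to the 8.87% and 4.96% of all tested peaks. Both control libraries stood above both sg1 libraries at 75 of the 174 tested peaks (43.1%), where 31.9% of all tested peaks did so. Both sg1 libraries stood above both control libraries at 49 (28.2%), where 31.8% of all tested peaks did so, and the groups overlapped at 50. The 3 peaks without a test were WWTR1 peaks 1 and 43 and AMOTL2 peak 7, peaks being numbered within each gene by rising coordinate. WWTR1 peak 43, chr3:149727107-149727309, had 32 and 12 counts in sg1 libraries and 0 and 0 in control libraries.

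**Figure D1:**
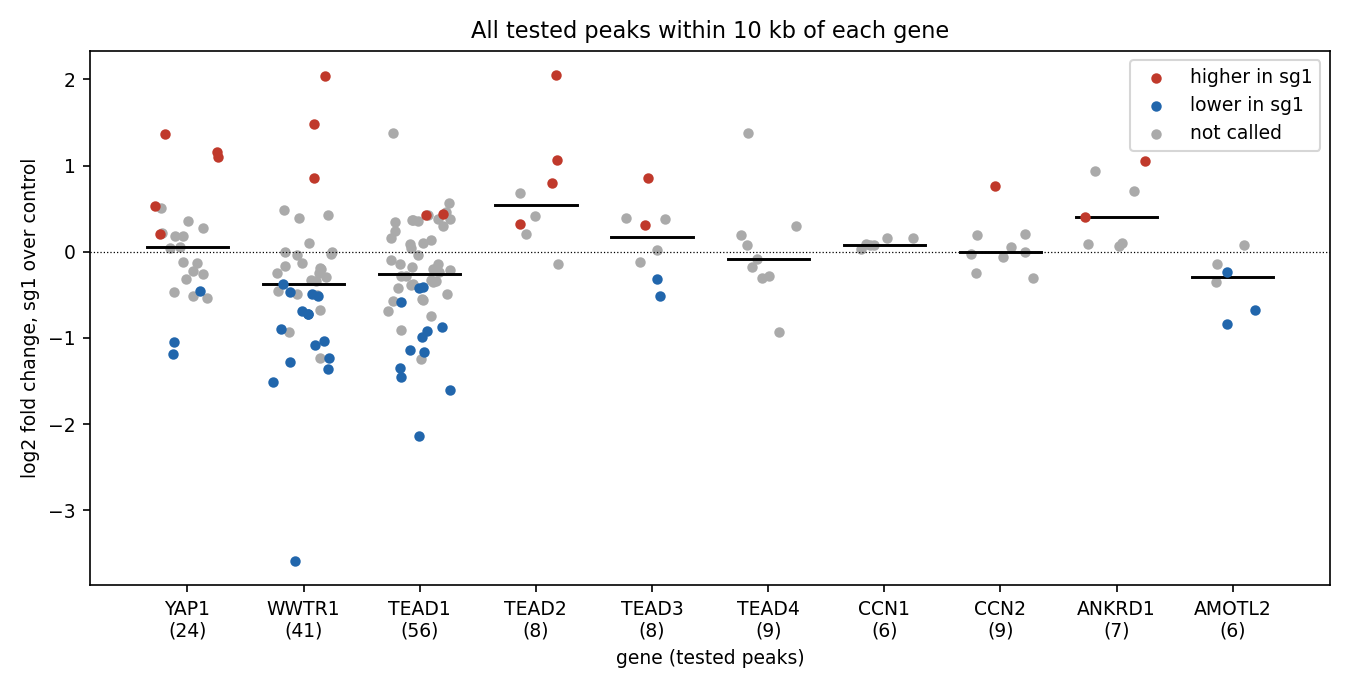
The log2 fold change (sg1 over control, vertical axis) of each of the 174 tested peaks by gene, with the number tested in brackets; red points were called higher in sg1, blue points lower and grey points were not called, and bars mark the median of each gene. The called-lower peaks lie mostly at WWTR1 (15) and TEAD1 (12), while CCN1 and TEAD4 have none in either direction.

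Peaks at gene ends and peaks elsewhere in the windows were called mostly in opposite directions. Of 28 tested member peaks within 1 kb of an end of a protein-coding gene, 2 were lower (7.14%) and 7 higher (25%), with a median log2 fold change of 0.20. Of all 23885 such peaks 7.28% were lower and 21.2% higher, so the members' shares were close to the background. Of the other 146 member peaks, 33 were lower (22.6%) and 12 higher (8.22%), and the median was -0.21. Among 95567 peaks in the same position around all protein-coding genes, 17.6% were lower and 9.99% were higher, and the median was -0.01.

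By role, the lower peaks of the co-activators were mostly those of WWTR1, with 15 of 41 tested peaks lower (36.6%) and 3 higher (7.32%). YAP1 had 3 of 24 lower (12.5%) and 5 higher (20.8%), against 16.8% lower and 11.5% higher of all tested peaks. The TEAD genes had 14 lower and 8 higher of 81 (17.3% and 9.88%), and the target genes had 3 lower and 3 higher of 28.

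The tallest peak within 1 kb of the start of each gene was called higher in sg1 for 4 of the 10 members, YAP1, TEAD1, TEAD2 and TEAD3. It was lower for none. The TEAD2 peak lies upstream and covers neither TEAD2 start in the promoter table. Over all protein-coding genes the tallest gene-end peak was higher for 30.6% and lower for 8.94% of 14628 genes. Those shares take either end of a gene, so they are not the same measure as member starts from the promoter table. The WWTR1 start peak, for example, lies at neither end of the gene. For CCN1, TEAD1 and TEAD4 the start was not given, so the tallest peak at either end stands in. DESeq2 called TEAD1, TEAD2 and TEAD3 higher at the start and no member lower. Without sg1 replicate 2 only 2 start peaks were called higher, and without control replicate 1 the AMOTL2 start peak was called lower.

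**Figure D2:**
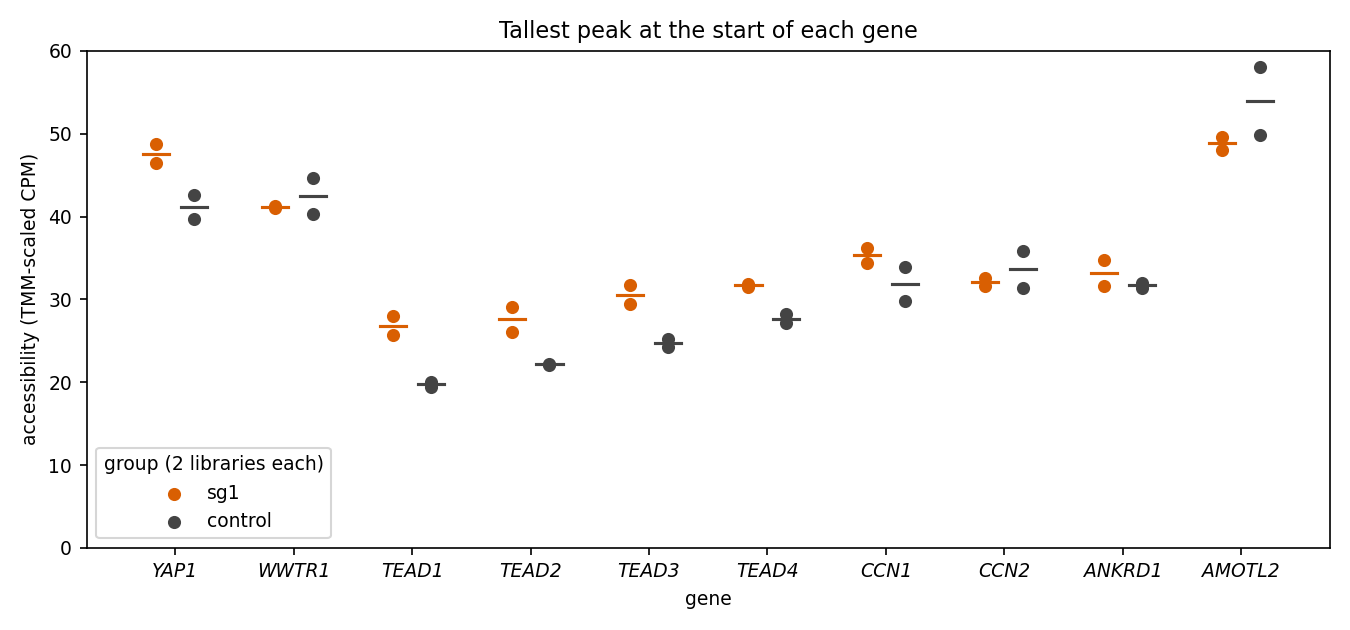
Accessibility in TMM-scaled CPM (vertical axis) of the tallest start peak of each member gene, sg1 libraries in orange and control libraries in grey; points are single libraries and bars group means. The groups stand apart upward in sg1 for YAP1, TEAD1, TEAD2, TEAD3, TEAD4 and CCN1, and TEAD4 and CCN1 did not pass the test. They stand apart downward for AMOTL2, which did not pass either. Of all tested peaks, both sg1 libraries stood above both controls at 31.8%, and the reverse held at 31.9%.

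YAP1, chr11:102110447-102233424, encodes the co-activator YAP. Its start peak, chr11:102109863-102111803, covers the promoter printed above. It had 46.4 and 48.7 CPM in sg1 and 39.8 and 42.7 CPM in control libraries. Both sg1 libraries were above both controls, with a log2 fold change of 0.21 ± 0.07 (SE; edgeR adjusted p = 0.0211). DESeq2 did not call it (adjusted p = 0.0781).

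Inside YAP1, 115611 bp from the start, peak 19 had 29.2 and 32.2 CPM in sg1 and 42.5 and 41.2 CPM in control libraries. Both control libraries were above both sg1 libraries, and the log2 fold change was -0.45 ± 0.07 (SE; edgeR adjusted p = 1.64e-05). This was the strongest peak of YAP1 that fell, and its call was kept in all 11 alternative fits. Peak 21, 116441 bp from the start and so close by, had 7.13 and 7.39 CPM in sg1 and 4.32 and 5.86 CPM in control libraries. It rose by 0.53 ± 0.17 on the log2 scale (edgeR adjusted p = 0.0190), and DESeq2 did not call it. Of the 24 YAP1 peaks, 3 were lower, 5 higher and 16 not called.

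The other called YAP1 peaks were weak. Peaks 8, 16 and 22 were among the 6 largest called gains of members with at least 30 mean scaled counts. They had 1.09 to 1.94 CPM in sg1 and 0.195 to 1.21 CPM in control libraries, with log2 fold changes of 1.36, 1.16 and 1.10. In peak 16 the control libraries lay apart, at 25 and 3 counts. Peaks 17 and 23 had log2 fold changes of -1.18 and -1.04. DESeq2 called none of these 5.

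WWTR1, chr3:149517235-149724788, encodes TAZ, the paralogue of YAP, and had the most peaks that lost accessibility. Of its 41 tested peaks, 15 were lower and 3 higher, and 34 had a log2 fold change below 0, with a median of -0.37. DESeq2 called 10 lower and none higher. The calls of 10 of the 15 lower peaks were kept in all 11 alternative fits, as were those of none of the 3 higher peaks.

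The loss did not include the tallest WWTR1 start peak. Peak 35, chr3:149657381-149659022, had 41.3 and 41.0 CPM in sg1 and 40.3 and 44.6 CPM in control libraries, and the groups overlapped. Its log2 fold change was -0.04, with a 95% interval of -0.19 to 0.10 (edgeR adjusted p = 0.702). At the other WWTR1 start in the promoter table, peak 41 was weak, with 1.92 and 1.82 CPM in sg1 and 2.96 and 3.26 CPM in control libraries (log2 fold change -0.72, edgeR adjusted p = 0.0272).

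The largest change among the tested member peaks was at WWTR1 peak 8, chr3:149551515-149551817, 106359 bp from the nearest start inside the gene. It had 17 and 11 counts in the sg1 libraries, the deeper ones, and 92 and 55 counts in the control libraries. In CPM this was 0.384 and 0.279 in sg1 against 4.47 and 3.58 in control, which do not overlap. The log2 fold change was -3.59 ± 0.33 (SE; edgeR adjusted p = 2.24e-10), or 12.01-fold lower in sg1.

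Peaks 13 and 14 of WWTR1, 82317 and 81687 bp from the nearest start, were the strongest of its peaks that fell. Peak 14 had 21.5 and 22.3 CPM in sg1 and 31.7 and 28.4 CPM in control libraries. Its log2 fold change was -0.46 ± 0.08 (edgeR adjusted p = 6.49e-05). Both control libraries were above both sg1 libraries. Peak 31, 32037 bp from the start, had 2.08 and 2.05 CPM in sg1 and 4.71 and 5.34 CPM in control libraries. Its log2 fold change was -1.28 ± 0.22 (edgeR adjusted p = 3.16e-05). Peaks 6 and 32, with means of 1.01 and 0.855 CPM in sg1 and 2.96 and 2.23 CPM in control, had log2 fold changes of -1.51 and -1.36. The largest WWTR1 gain among tested peaks was at peak 18, with 47 and 39 counts in sg1 and 8 and 1 counts in control libraries (log2 fold change 2.03, edgeR adjusted p = 0.00398; DESeq2 adjusted p = 0.0616).

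**Figure D3:**
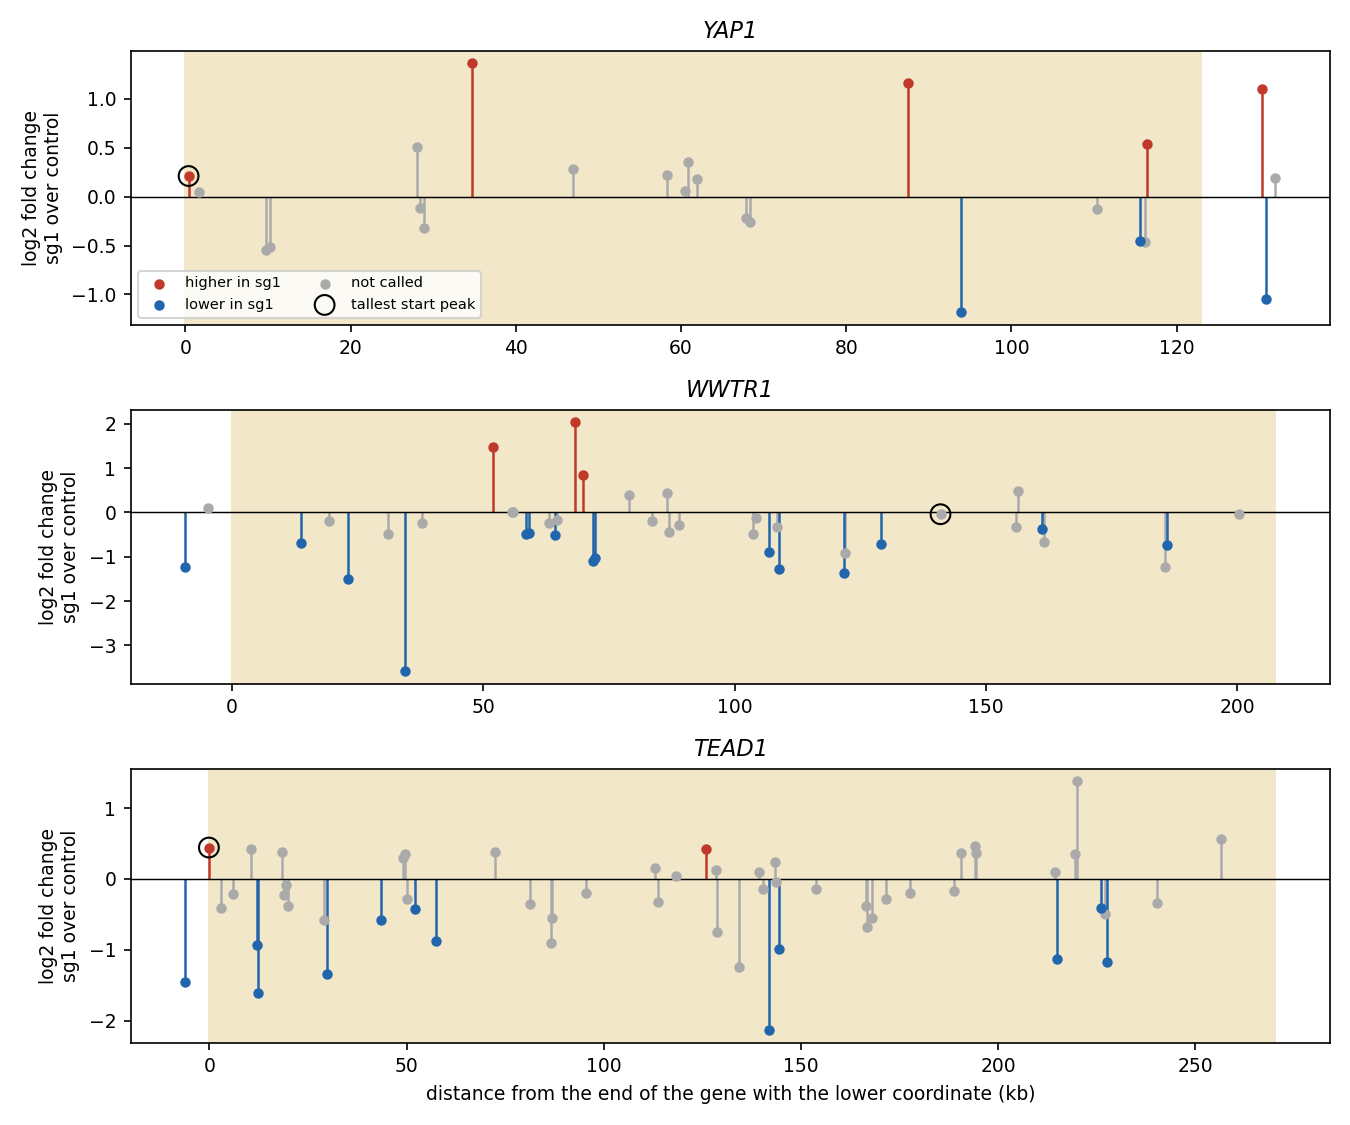
The log2 fold change (sg1 over control) of each tested peak of YAP1, WWTR1 and TEAD1 against its distance in kb from the end of the gene with the lower coordinate; the shaded band is the gene, circles mark the tallest start peak, and colours are as in the plot of all tested peaks. The lower peaks of WWTR1 and TEAD1 are spread along the gene, while the circled peaks of YAP1 and TEAD1 were higher and that of WWTR1 was not called.

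TEAD1, chr11:12674421-12944737, encodes one of the 4 TEAD factors, which bind DNA and need YAP or TAZ to activate genes. Its start peak rose while some peaks inside the gene fell and most were not called. The start peak, chr11:12673781-12674803, had 25.68 and 27.95 CPM in sg1 and 19.4 and 20.1 CPM in control libraries. Both sg1 libraries were above both controls, with a log2 fold change of 0.44 ± 0.09 (SE; edgeR adjusted p = 0.000222), kept in all 11 alternative fits. Of all 56 TEAD1 peaks, 12 were lower, 2 higher and 42 not called, and 37 had a log2 fold change below 0. Of the 55 away from gene ends, 12 (21.8%) were lower and 1 (1.82%) higher. Around all protein-coding genes, 17.6% of peaks in that position were lower and 9.99% higher.

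The most certain TEAD1 losses were peaks 54, 37 and 34. Peak 54, chr11:12901868-12902260, had 4.15 and 3.42 CPM in sg1 and 6.99 and 10.3 CPM in control libraries (log2 fold change -1.17 ± 0.18, edgeR adjusted p = 8.62e-06). Peak 37, chr11:12818584-12819017, had 4.18 and 4.79 CPM in sg1 and 9.27 and 8.40 CPM in control libraries (log2 fold change -0.99 ± 0.16, edgeR adjusted p = 1.66e-05). These are changes of about 2-fold in peaks of middling strength. Peak 34, chr11:12816194-12816354, had 21 and 14 counts in sg1 and 36 and 30 counts in control libraries, although the control libraries were shallower (log2 fold change -2.14 ± 0.38, edgeR adjusted p = 6.27e-05). Only these 3 of the 12 lower calls were kept in all 11 alternative fits. The tallest TEAD1 peak, peak 10, did not pass the test, with 31.6 and 30.5 CPM in sg1 and 32.4 and 33.8 CPM in control libraries (log2 fold change -0.09, edgeR adjusted p = 0.398). Peaks 1 and 13, also among the 6 largest called losses with at least 30 mean scaled counts, had log2 fold changes of -1.45 and -1.35, and the second called-higher peak, peak 28, one of 0.42.

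TEAD2, chr19:49340595-49362416, encodes a TEAD factor best known from early development, and none of its peaks was lower. Of its 8 peaks, 4 (50%) were higher in sg1 by edgeR and by DESeq2, beside 11.5% and 4.93% of all tested peaks. Both sg1 libraries were above both controls at 7, where 31.8% of all tested peaks did so. The start peak, peak 8, chr19:49363080-49364112, had 29.1 and 26.1 CPM in sg1 and 22.2 and 22.1 CPM in control libraries (log2 fold change 0.32 ± 0.09, edgeR adjusted p = 0.00536). It lies upstream of TEAD2, overlaps DKKL1 and covers neither TEAD2 start in the promoter table. Peaks 7 and 5, which cover those starts, were not called (log2 fold changes 0.20 and 0.68, edgeR adjusted p = 0.527 and 0.111).

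Peak 2, chr19:49339000-49340191, had 14.1 and 16.9 CPM in sg1 and 8.64 and 9.18 CPM in control libraries (log2 fold change 0.80 ± 0.12, edgeR adjusted p = 6.55e-06). The neighbouring peak 3 had 45 and 52 counts in sg1 and 6 and 4 counts in control libraries, the largest called gain among member peaks with at least 30 mean scaled counts (log2 fold change 2.05, edgeR adjusted p = 0.00150). Both lie beyond the downstream end of TEAD2 and within 1 kb of ends of SLC6A16 and CD37, so they cannot be assigned to TEAD2 alone. Peak 4, 13500 bp from the start and inside TEAD2, overlaps no other listed gene. It had 2.73 and 2.99 CPM in sg1 and 1.262 and 1.498 CPM in control libraries (log2 fold change 1.06 ± 0.28, edgeR adjusted p = 0.00377).

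TEAD3, chr6:35473597-35497079, had opposite changes at its start and inside the gene. The start peak, peak 7, had 29.5 and 31.7 CPM in sg1 and 24.2 and 25.2 CPM in control libraries (log2 fold change 0.31 ± 0.08, edgeR adjusted p = 0.00427). It also lies within 1 kb of an end of TULP1. The tallest TEAD3 peak, peak 4, chr6:35484833-35486147, is inside the gene and had 64.6 and 67.9 CPM in sg1 and 85.9 and 78.3 CPM in control libraries. The groups did not overlap, and its log2 fold change was -0.31 ± 0.06 (edgeR adjusted p = 0.000154), called in all 11 alternative fits. Peak 3 fell by 0.51 and peak 6 rose by 0.86 on the log2 scale, and the other 4 of the 8 peaks were not called. DESeq2 called peak 3 but not peak 6 (DESeq2 adjusted p = 0.102 for peak 6).

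TEAD4, chr12:2959397-3040676, had no called peak among 9. Its tallest peak, at the lower-coordinate end of the gene, had 31.5 and 31.9 CPM in sg1 and 27.1 and 28.3 CPM in control libraries. Both sg1 libraries were above both controls, but the peak missed the threshold (log2 fold change 0.20, 95% interval 0.04 to 0.36 before adjustment, edgeR adjusted p = 0.0560). It was called with 3 of the 11 alternative fits.

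Of the targets, CCN1, chr1:85580761-85583950, and CCN2, chr6:131948176-131951372, encode secreted matricellular proteins and are the standard transcriptional readouts of YAP and TAZ. None of the 6 CCN1 peaks was called, and all 6 log2 fold changes lay between 0.03 and 0.16. The peak at the lower-coordinate end, peak 5, had 35.9 and 33.3 CPM in sg1 and 31.7 and 30.4 CPM in control libraries (edgeR adjusted p = 0.128). Peak 6, at the higher-coordinate end, had 36.2 and 34.4 CPM in sg1 and 29.8 and 33.9 CPM in control libraries (log2 fold change 0.16, 95% interval -0.00 to 0.31, edgeR adjusted p = 0.136). Both sg1 libraries were above both controls at 5 of the 6 peaks, where 31.8% of all tested peaks did so. At peak 1, which like peak 2 overlaps DDAH1, the nearest libraries had 28.69 CPM in sg1 and 28.65 CPM in control. Peak 2, 34.9 CPM on average in sg1 and 33.2 CPM in control, lies at an end of DDAH1.

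The CCN2 start peak, which covers the promoter with 3 TEAD matches printed above, had 31.6 and 32.6 CPM in sg1 and 31.4 and 35.9 CPM in control libraries. The groups overlapped, and the log2 fold change was -0.06, with a 95% interval of -0.22 to 0.09 (edgeR adjusted p = 0.580). Of 9 CCN2 peaks only peak 2, beyond the downstream end, was called. It had 4.90 and 4.89 CPM in sg1 and 2.72 and 3.06 CPM in control libraries (log2 fold change 0.77 ± 0.21, edgeR adjusted p = 0.00519).

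ANKRD1, chr10:90912096-90921087, encodes an ankyrin-repeat protein of muscle and is a direct TEAD target. Its start peak, over the promoter with 2 TEAD matches and 1 AP-1 match, had 31.6 and 34.8 CPM in sg1 and 31.4 and 32.0 CPM in control libraries, which overlap (log2 fold change 0.07, 95% interval -0.09 to 0.22, edgeR adjusted p = 0.561). Upstream of it, at -9419 bp from the start, peak 6, chr10:90930128-90930884, had 20.6 and 20.3 CPM in sg1 and 15.6 and 15.4 CPM in control libraries. This peak rose by 0.40 ± 0.10 on the log2 scale (edgeR adjusted p = 0.00176), and the call was kept in all 11 alternative fits. The tallest peak, peak 7, at -10282 bp from the start, was not called, with 36.3 and 34.6 CPM in sg1 and 30.8 and 36.1 CPM in control libraries. Peak 4, inside the gene, was weak and had a log2 fold change of 1.05 (edgeR adjusted p = 0.0175). All 7 log2 fold changes were above 0, and the other 5 peaks were not called.

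AMOTL2, chr3:134355345-134375417, encodes a junctional protein of the motin family, which binds and restrains YAP. It was the target with lower peaks, 3 of 6 tested (50%), beside 16.8% of all tested peaks, and none was higher. Peak 1, chr3:134348437-134349040, downstream of the gene, had 11.3 and 11.5 CPM in sg1 and 21.0 and 19.5 CPM in control libraries. The groups were far apart, with a log2 fold change of -0.83 ± 0.10 (SE; edgeR adjusted p = 1.02e-07). Peak 2, also downstream, had 5.19 and 5.24 CPM in sg1 and 7.62 and 9.12 CPM in control libraries (log2 fold change -0.67 ± 0.16, edgeR adjusted p = 0.00165). Peak 5, inside the gene, had 38.5 and 38.9 CPM in sg1 and 45.7 and 45.1 CPM in control libraries (log2 fold change -0.23 ± 0.07, edgeR adjusted p = 0.0106). DESeq2 called the first 2 of these.

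The AMOTL2 start peak, which covers both of its promoters in whole or in part, had 48.0 and 49.6 CPM in sg1 and 49.9 and 58.1 CPM in control libraries. Its log2 fold change was -0.14, with a 95% interval of -0.28 to 0.00 (edgeR adjusted p = 0.132). Both control libraries were above both sg1 libraries, as at 31.9% of all tested peaks. The control libraries differed from each other more than the nearer one differed from sg1.

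Summed over all peaks of a gene and its 10 kb flanks, 5 of the 10 members were lower in sg1 (YAP1, WWTR1, TEAD1, TEAD3 and AMOTL2) and 2 higher (TEAD2 and ANKRD1). Of 18545 protein-coding gene windows tested, 26.4% were lower and 24.2% higher. Scaling changed this split. With library size alone it was 3 lower and 4 higher, and with an offset fitted by loess on the mean level it was 2 lower and 3 higher. Without sg1 replicate 1, 3 were lower and 1 higher, and without control replicate 1 or sg1 replicate 2 the higher count was also 1. The median of all windows shifted to 0.10 on the log2 scale with library size alone, against 0.01 with TMM.

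The largest decrease was at WWTR1, with 196.5 and 198.7 CPM in sg1 and 256.1 and 255.1 CPM in control libraries. The log2 fold change was -0.37 ± 0.03 (SE; edgeR adjusted p = 1.15e-33), and between -0.20 and -0.38 over 12 alternatives. AMOTL2 had 130.4 and 131.3 CPM in sg1 and 154.1 and 162.3 CPM in control libraries (log2 fold change -0.27 ± 0.04, edgeR adjusted p = 1.14e-12). TEAD2 had 55.0 CPM in both sg1 libraries and 40.6 and 40.5 CPM in control libraries (log2 fold change 0.44 ± 0.06, edgeR adjusted p = 9.40e-11). The TEAD2 window takes in peaks 2 and 3, which overlap SLC6A16 and CD37, and peak 8, which overlaps DKKL1. Its gain therefore cannot be assigned to TEAD2 alone. The window calls of WWTR1, AMOTL2 and TEAD2 held in all 12 alternatives.

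The other window calls were smaller and depended on scaling or on 1 library. TEAD1 had a log2 fold change of -0.20 (edgeR adjusted p = 3.83e-12), and -0.01 with the loess offset (adjusted p = 0.739). TEAD3 had -0.13 (adjusted p = 0.000942), and -0.06 without control replicate 1, -0.04 with library size alone and -0.00 with loess, none of them called. YAP1 had -0.09 (adjusted p = 0.0151), -0.00 with library size alone, and turned to 0.04 with loess (adjusted p = 0.269). ANKRD1 had 0.13 (adjusted p = 0.0109), and 0.06 without control replicate 1 (adjusted p = 0.400), and its call was lost in 6 of the 12 alternatives.

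TEAD4, CCN1 and CCN2 were not called, with edgeR log2 fold changes of 0.05, 0.06 and -0.05. The 95% intervals were -0.06 to 0.16 for TEAD4, -0.01 to 0.13 for CCN1 and -0.16 to 0.05 for CCN2. CCN1 was called higher with library size alone (0.15) and with loess (0.16), TEAD4 higher with library size alone (0.14), and CCN2 lower without control replicate 1 (-0.17). CCN2 had 61.7 and 72.2 CPM in the control libraries, a wider gap than its 63.8 and 64.6 CPM in sg1.

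**Figure D4:**
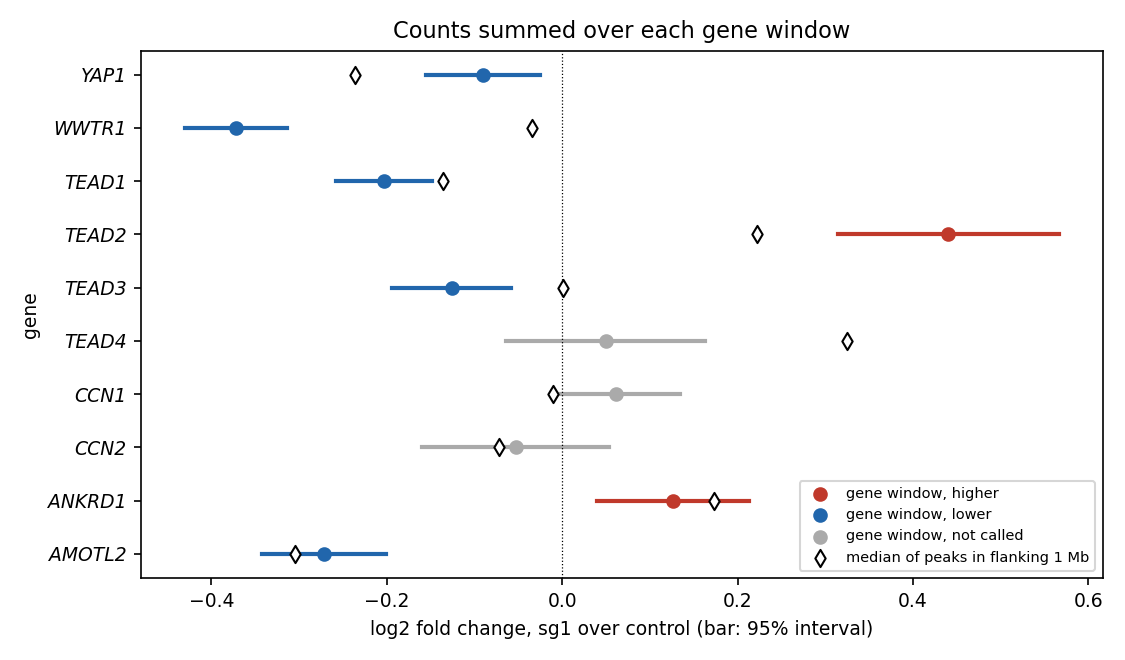
Log2 fold change (sg1 over control, horizontal axis) of counts summed over each member gene and its 10 kb flanks, with 95% intervals; colours give the edgeR call and open diamonds the median of tested peaks in the 1 Mb on each side of the window. The WWTR1 window, at -0.37, lies below its flanking median of -0.03, while the AMOTL2 window, at -0.27, lies near its flanking median of -0.30.

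The surroundings of the members also differed between groups. Within 1 Mb on each side of the AMOTL2 window, 25% of 132 tested peaks were lower and 3.79% higher, with a median log2 fold change of -0.30. Around YAP1 31.5% of 178 peaks were lower, with a median of -0.24, whereas the peaks of YAP1 itself had a median of 0.05. Around TEAD1 22.1% of 235 peaks were lower, with a median of -0.14. Around WWTR1 the median of 208 peaks was -0.03 and 17.3% were lower. Around TEAD2 19.7% of 330 peaks were higher and the median was 0.22, and around TEAD4 the median was 0.32, where the TEAD4 window was not called. The part of these regional shifts in the values of the members was not tested.

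The pathway upstream was read from 36 Hippo regulators, each at the tallest of its gene-end peaks by mean CPM. Of 33 with such a peak, 14 were higher in sg1, 1 was lower and the median log2 fold change was 0.17, against 0.15 over all protein-coding genes with a tested gene-end peak, of which 30.6% were higher. DESeq2 called 5 higher and 1 lower. The higher count was 9 without control replicate 2, which gave 2 lower, 7 without sg1 replicate 1 and 5 without sg1 replicate 2. DCHS1, VGLL1 and VGLL2 had no gene-end peak.

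TAOK1, a kinase that activates STK3 and STK4, had 23.3 and 24.0 CPM in sg1 and 16.5 and 14.7 CPM in control libraries (log2 fold change 0.59 ± 0.09, edgeR adjusted p = 1.11e-05). The related kinase TAOK2 had a log2 fold change of 0.49 (edgeR adjusted p = 0.000790). The TAOK2 peak also lies within 1 kb of ends of TMEM219 and LOC124903762, so it cannot be assigned to TAOK2 alone. VGLL3 and VGLL4, which compete with YAP for TEAD factors, had 0.39 and 0.31 (edgeR adjusted p = 0.000434 and 0.00146). The 1 lower regulator was FRMD6, a FERM-domain protein, with 30.4 and 29.2 CPM in sg1 and 37.5 and 38.1 CPM in control libraries (log2 fold change -0.34 ± 0.07, edgeR adjusted p = 0.000578). The core kinases LATS1 and LATS2 were not called, at 0.11 and 0.16.

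Of 29 further target genes of YAP and TEAD, 7 were higher at the gene-end peak, 3 lower and 19 not called. The shares of 24.1% higher and 10.3% lower stand beside 30.6% and 8.94% over all genes, and the median of 0.10 beside 0.15. The loess offset gave 9 higher and 2 lower, and DESeq2 3 higher and 2 lower. Without either sg1 replicate 3 were higher, and without sg1 replicate 1 only 1 was lower. F3, which encodes tissue factor, had 28.9 and 28.6 CPM in sg1 and 22.5 and 17.7 CPM in control libraries (log2 fold change 0.50 ± 0.09, edgeR adjusted p = 8.45e-05). AREG, an EGFR ligand, had 15.4 and 15.5 CPM in sg1 and 10.1 and 9.96 CPM in control libraries (0.62 ± 0.11, adjusted p = 8.58e-05). MYOF and AJUBA had log2 fold changes of 0.42 and 0.48. DESeq2 did not call AJUBA (DESeq2 adjusted p = 0.0975), and its call was lost in 5 of the 11 alternative fits.

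The lower targets were TGM2, CCDC80 and ASAP1. TGM2, which encodes a transglutaminase, had 64.7 and 63.3 CPM in sg1 and 82.7 and 88.1 CPM in control libraries (log2 fold change -0.41 ± 0.06, edgeR adjusted p = 1.39e-06). CCDC80 had -0.38 (adjusted p = 0.00193) and ASAP1 -0.25 (adjusted p = 0.0152; DESeq2 adjusted p = 0.0929). LATS2, PTPN14 and AJUBA are on both lists.

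**Figure D5:**
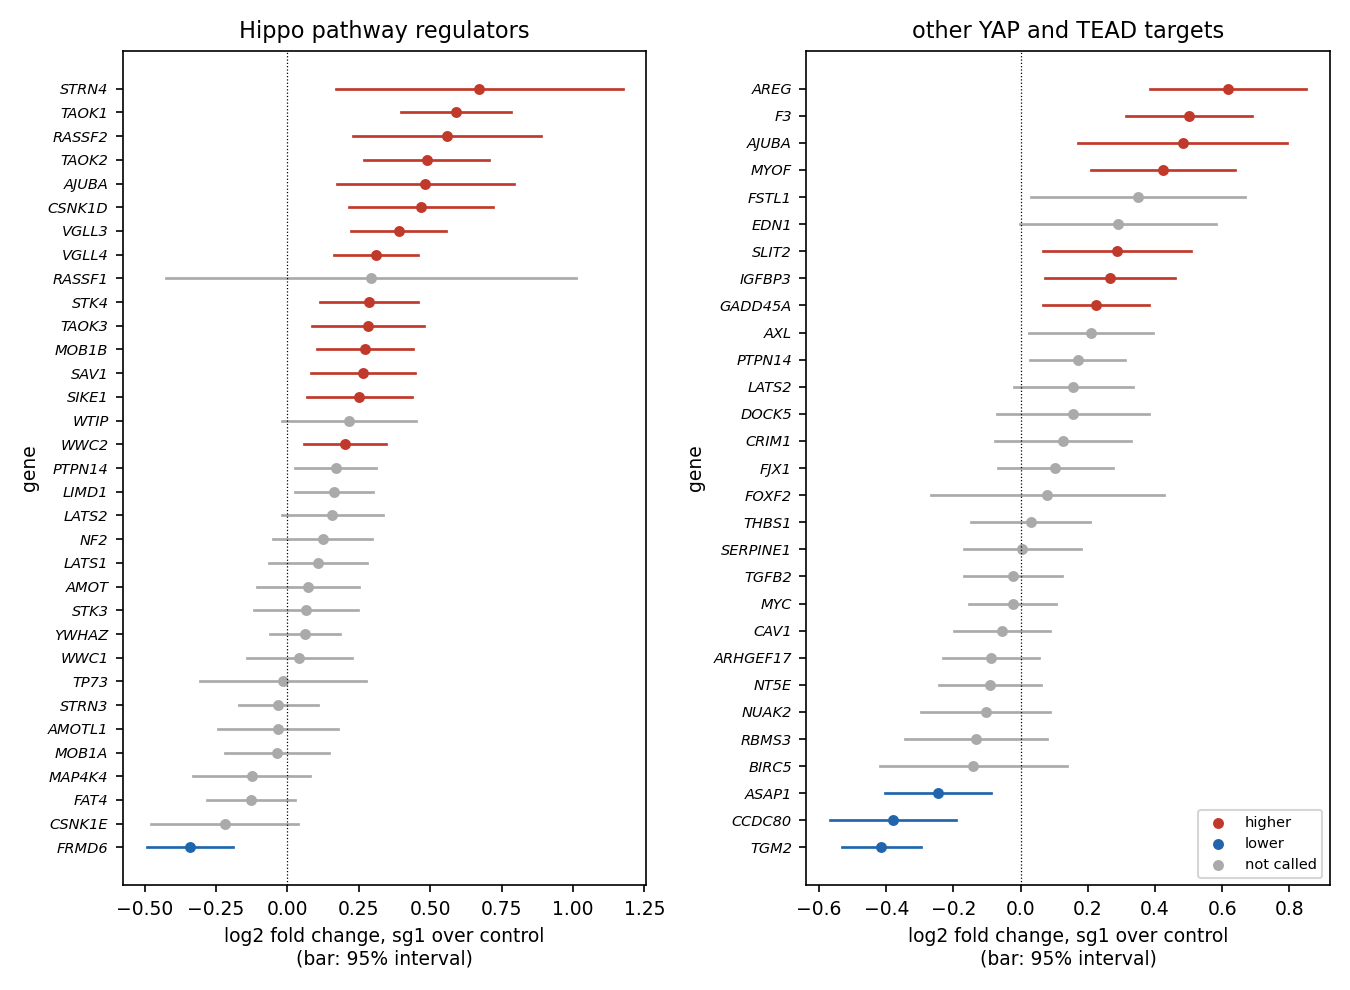
Log2 fold change (sg1 over control, horizontal axis) with 95% interval at the tallest gene-end peak of 33 Hippo regulators (left) and 29 further YAP and TEAD targets (right); red was called higher in sg1, blue lower, grey not called. Higher calls outnumber lower calls on both lists, 14 to 1 and 7 to 3, over genes whose gene-end peaks as a whole were higher in 30.6% and lower in 8.94%.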

How the data were processed

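Raw counts per peak were deposited for 4 libraries; per the file headers, the authors made the counts with featureCounts 1.6.0 from cut-site alignments. Per the submitters' processing notes, Trimmomatic 0.39, Bowtie2, MACS2 2.2.4, DESeq2 1.32 and deepTools 3.1.3 were among the tools used, without their roles. No build of the genome is stated in the files or labels used. Positions were placed on a RefSeq gene table of GRCh38.p14, which gives no strand; gene starts came from the RefSeq promoter table of the same build where it lists them. All 109 peaks that start in the first 250 kb of chromosome 1, at mitochondrial-like positions, were left out.

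The test was edgeR 4.0.16 under R 4.3.3: filterByExpr, then TMM scaling, then a quasi-likelihood F test with group as the sole term and Benjamini-Hochberg adjustment over all 184717 peaks tested, and again over counts summed in 18545 protein-coding gene windows. A start or gene-end peak is the one of highest mean CPM within 1 kb. DESeq2 1.42.0 was an alternative. The scripts were tested on simulated data: with 40 of 184717 peaks changed at each fold, 31 of 40 peaks at 0.25-fold, 20 of 40 at 0.5-fold, 22 of 40 at 2-fold and 39 of 40 at 4-fold were recovered, and 4 of 40 at 1.5-fold. Figures used matplotlib 3.10.9.

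The members, gene lists and tests were chosen with earlier results of these data known. Named are each gene's start peak, its tallest peak and up to 3 called peaks per direction with the smallest p, the 6 largest called changes per direction with at least 30 mean scaled counts, and up to 4 called genes per list and direction; WWTR1 peaks 13, 41 and 43 and CCN1 peak 5 were added after their values were seen. Some markers read at gene ends are not reported here.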

Additional observations from a re-analysis of the deposited data

How the results depend on the processing

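Of 56 called single results named above, 27 kept direction and call in every alternative tried for them and 29 lost the call in at least 1; 1 reversed, the YAP1 window, at 0.044 with the loess offset. The cause of these moves was not tested, except that leaving out a library or thinning removes counts. DESeq2 called 17866 peaks lower and 8475 higher in all, 21 and 8 members, 1 window higher, and 5 regulators and 3 further targets higher. Library size alone gave 3 windows lower and 4 higher, and loess gave 2 windows lower. Thinning to equal depth gave 1 window, 9 regulators and 4 targets higher, windows of 1 kb flanks gave 1 higher, and an FDR of 0.01 gave 11455 peaks and 9 members higher. Leaving out each replicate in turn gave 18880 to 29467 peaks lower and 11148 to 20243 higher in all, 22 to 35 members lower and 9 to 24 higher, 3 to 5 windows lower and 1 to 2 higher, 0 to 1 start peaks lower and 2 to 6 higher, 1 to 2 regulators lower and 5 to 11 higher, and 1 to 3 targets lower and 3 to 7 higher. Where it left 1 library in a group, that library was assumed to vary like the others. With no filter, and with the start of chromosome 1 kept, every one of these counts stayed within 1.5 times its value. Whether same-numbered libraries were paired is not known. Their deviations correlated at -0.000258, which cannot decide this, since replicates differed by little more than sampling noise. With the replicate block 35 members were lower and 18 higher. In simulated data 4 of 40 peaks changed 1.5-fold were recovered, so changes of that size can go uncalled. Far fewer peaks were changed there than were called in these data, which makes the FDR threshold stricter. That share therefore does not measure the recovery in these data.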

Other observations

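Some neighbouring peaks of 1 gene were called in opposite directions. At YAP1, peak 19 (log2 fold change -0.45) and peak 21 (0.53) lie within the same stretch near the end of the gene, with peak 20 between them not called (-0.47, adjusted p = 0.246 by edgeR). Beyond the downstream end of YAP1, peak 22 had 86 and 70 counts in sg1 and 17 and 14 counts in control libraries, while the next peak, 23, had 28 and 37 counts in sg1 and 25 and 32 counts in control libraries. Their log2 fold changes were 1.10 and -1.04, and DESeq2 called neither. At TEAD3, peak 4 (-0.31) and peak 6 (0.86) lie inside the gene on either side of peak 5, which was not called. Neither TEAD3 peak 6 nor YAP1 peak 21 was called by DESeq2. All the pairs of neighbours given here were picked after their values were seen.

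The density of peaks also differed between members. TEAD4 and its flanks held 8.89 peaks per 100 kb, whereas the other 9 members held 16.8 to 38.8, the most at CCN2.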
